A study of Mus musculus with 2 samples.

Results

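The polo-like kinases are the serine/threonine kinases *Plk1*, *Plk2*, *Plk3* and *Plk4*, and they were chosen by gene symbol, through the accession that the array lists for each probe. All 4 genes were measured, each by 1 probe, among 24031 tested genes. They had been singled out with their log2 ratios in this comparison known, *Plk2* and *Plk3* as the stress-induced pair and *Plk1* and *Plk4* as the mitotic pair, so the ratios of these 4 genes are given as a description and without a test. The cells were mouse embryonic stem cells (mESCs) of the genotype AIMP3f/f;cre-ERT2, in which 4-hydroxytamoxifen (4-OHT) turns on a Cre recombinase that cuts out the loxP-flanked *AIMP3* gene. AIMP3-depleted cells had received 2 μM tamoxifen (4-OHT) for 4 days in medium with LIF, in 2 replicates, and control cells of the same genotype had received ethanol. Each AIMP3-depleted RNA was labelled with Cy5 and hybridized to 1 array together with 1 control RNA, pooled from 2 control replicates and labelled with Cy3. The promoter that drives the Cre is not given in the sources used here, and no sample had 4-OHT or active Cre with an intact *AIMP3* gene, so effects of 4-OHT or of Cre itself and of AIMP3 depletion cannot be told apart.

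Polo-like kinases share a kinase domain and a carboxy-terminal stretch of polo boxes, which bind partner proteins. PLK1 drives cells into and through mitosis by maturing centrosomes, activating the cyclin B kinase and helping to set up the spindle and the cut between daughter cells. PLK4 starts the duplication of centrioles. *Plk2* (first named Snk, for serum-inducible kinase) and *Plk3* (Fnk) belong to the early response genes, whose transcripts appear soon after growth factors or stress, and both are known targets of p53. Mouse embryonic stem cells divide fast, with a short G1 phase, and transcripts of mitosis are abundant in them.

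The promoters of the 4 genes are shown because the mitotic and the stress-induced kinases are known for different promoter elements. RefSeq windows of assembly GRCm38.p6 from 250 bases before to 50 bases after the start were found for all 4 genes, and the 140 bases before the start are printed here 5′ to 3′ on the strand of the gene. Capitals mark matches on either strand to the core of the cAMP response element (CRE, TGACGT), the GC box (GGGCGG), the CCAAT box (CCAAT) and the cell cycle genes homology region (CHR, TTTGAA or TTCGAA). The windows lie at chr13:110394904-110395043 for *Plk2* (plus strand), chr4:117133964-117134103 for *Plk3* (minus strand), chr7:122159295-122159434 for *Plk1* (plus strand) and chr3:40799811-40799950 for *Plk4* (plus strand). The fifth sequence is the stretch of *Plk1* after the start that holds its CHR match, at chr7:122159453-122159482.
Plk2: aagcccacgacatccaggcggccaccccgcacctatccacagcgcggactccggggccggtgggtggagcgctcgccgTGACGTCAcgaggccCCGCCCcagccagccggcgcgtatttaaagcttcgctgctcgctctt
Plk3: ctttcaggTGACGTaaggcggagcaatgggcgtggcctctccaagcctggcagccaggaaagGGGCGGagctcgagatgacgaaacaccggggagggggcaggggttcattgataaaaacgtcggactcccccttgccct
Plk1: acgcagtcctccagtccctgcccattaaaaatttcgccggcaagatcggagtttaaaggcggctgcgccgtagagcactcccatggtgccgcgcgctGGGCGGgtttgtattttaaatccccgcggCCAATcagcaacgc
Plk4: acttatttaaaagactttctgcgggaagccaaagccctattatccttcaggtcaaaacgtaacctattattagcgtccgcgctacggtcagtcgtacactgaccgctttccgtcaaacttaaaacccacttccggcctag
Plk1 after the start: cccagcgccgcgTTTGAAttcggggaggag

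The CRE core was present in the windows of *Plk2* and *Plk3* and had no match in those of *Plk1* and *Plk4*. *Plk2* had 3 matches, of which a pair overlaps in the palindrome TGACGTCA, 62 to 55 bases before the start, and the other lies 21 bases after it. *Plk3* had 1 match, 132 bases before the start. Of 32851 promoter windows of this length, 7.51% hold the CRE core and 1.79% hold the palindrome. G and C make up 66.3% of the window of *Plk2*, 62.7% for *Plk3*, 57.7% for *Plk1* and 50% for *Plk4*. The median over all windows is 52.7%, and shares among windows of like G and C content were not counted. The CHR was matched in *Plk1* alone among the 4 genes, from position 31 to 36 after the start, and 19.2% of all windows hold it. In *Plk1* it stood with a CCAAT box 14 bases before the start, an element that 37.4% of windows hold. A GC box was matched in *Plk1*, *Plk2* and *Plk3* and in 35.7% of all windows. None of these elements was matched in *Plk4*. Sites of AP-1 (TGANTCA), E2F (TTTCCCGC, TTTGGCGC, TTTGCCGC or TTTCGCGC), the TATA box (TATAAA), the CArG box and the short and the full p53 site had no match in any of the 4 windows (0 matches), and 7.81%, 2.26%, 13.6%, 1.63%, 8.36% and 0.0731% of all windows hold them. A match says only that these letters are present.

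**Figure D1:**
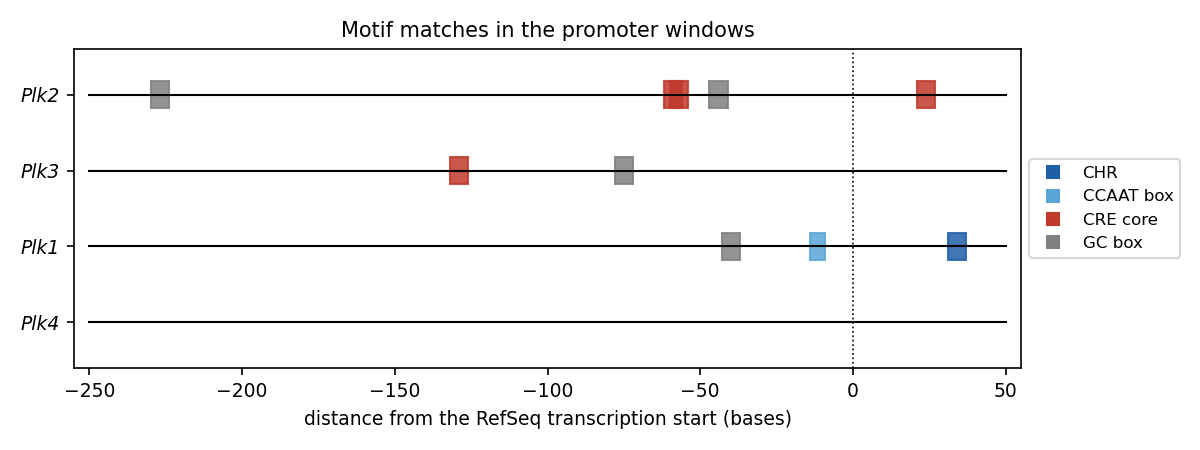
Motif matches along the promoter windows of the 4 genes, by distance in bases from the RefSeq transcription start (dotted line), with a coloured box for each match. CRE cores lie in *Plk2* and *Plk3*, the CHR and the CCAAT box in *Plk1*, and no match in *Plk4*.

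*Plk2* was higher in AIMP3-depleted mESCs on both arrays, *Plk3* was higher by a smaller amount, and *Plk1* and *Plk4* were lower. On the log2 scale the mean ratio of AIMP3-depleted over control, the opposite of the control-over-test ratio that the methods word, was 1.43 for *Plk2*, 0.38 for *Plk3*, -0.34 for *Plk1* and -0.28 for *Plk4*. Only *Plk2* was over 1.5-fold, 1 of the 4 genes, beside 6.31% of all tested genes that were called changed (over 1.5-fold with an unadjusted p under 0.05 by limma). Nothing is read from that count, because these ratios were known when the genes were singled out.

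The arrays were first checked by *Eef1e1*, the gene of AIMP3. It fell to 53.6% of control, with log2 ratios of -0.90 on both arrays (limma, Benjamini-Hochberg adjusted p = 5.02e-05). Whether its probe lies in the deleted part is not given in the sources used here. Of 14 pluripotency markers, all 14 were well above background in the control channel on both arrays. The median spot signal over background lay between 2.68 and 3.31 in the 4 channels, and with 2 arrays the precision is limited by their number. No swapped labelling was made, so a gene-specific dye effect and AIMP3 depletion cannot be told apart, and how far the control replicates differ is not seen with a pooled control.

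The signals of the *Plk2* probe, background-subtracted and dye-normalized by the scanner software, were 467 for control and 1187 for AIMP3-depleted RNA on the array of replicate 1. For replicate 2 they were 431 and 1331. The AIMP3-depleted values lay above both control values, which are 1 pooled RNA measured on both arrays. What share of all tested genes separates in this way was not counted, for this or the other kinases. After background correction and loess normalization, the log2 ratios were 1.31 and 1.56, with a mean of 1.43 ± 0.18 (SD, n = 2), which is 2.70-fold. *Plk2* ranked 35 from the highest of the 24031 tested genes, so that 0.146% of them had a ratio at least as high. The gap between the arrays was larger in the AIMP3-depleted channel than in the control channel. After each channel was centred on the median over 15963 bright probes, the log2 processed signal was 0.21 higher for replicate 2 in the AIMP3-depleted channel. It differed by -0.07 in the control channel. Over the bright probes the SD of this difference was 0.10 and 0.083. The error that the scanner software gives for the ratio of this spot was 0.24 and 0.25 on the log2 scale, beside scanner ratios of 1.35 and 1.63.

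For *Plk3*, the control signals were 1992 and 1932 and the AIMP3-depleted signals 2409 and 2341 on the arrays of replicates 1 and 2. Both AIMP3-depleted values were above both control values. The log2 ratios were 0.36 and 0.39 (mean 0.38 ± 0.020, SD, n = 2), which is 1.30-fold, and 12.2% of tested genes had a ratio at least as high. The arrays differed little for this gene, but the scanner's own ratios (0.27 and 0.28) were closer to the scanner's error for the spot (0.21 on both arrays) than those of *Plk2*.

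The *Plk1* probe gave control signals of 13509 and 13032 and AIMP3-depleted signals of 10611 and 10379. Both AIMP3-depleted values lay under both control values. The log2 ratios were -0.36 and -0.33 (mean -0.34 ± 0.023, SD, n = 2), so that 78.8% of the control level was left, and 5.87% of tested genes had a ratio as low or lower. The scanner's error for the ratio was 0.21 on each array, beside scanner ratios of -0.35 and -0.33.

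The *Plk4* probe had little room above background, with a spot signal 7.41 and 7.05 times the local background for control RNA and 8.44 and 6.31 times for AIMP3-depleted RNA. It was well above background in both channels on both arrays. Its processed signals were 173 and 152 for control and 129 and 111 for AIMP3-depleted RNA. The scanner ratios were -0.42 and -0.46 on the log2 scale, with an error of 0.21 and 0.22. After background correction and loess normalization, the log2 ratios were nearer to 0, at -0.21 and -0.34 (mean -0.28 ± 0.093, SD, n = 2), or 82.6% of control. Of all tested genes 9.74% were as low or lower. Both channels of this probe were dimmer on the array of replicate 2, by 0.14 and 0.18 on the log2 scale after centring.

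**Figure D2:**
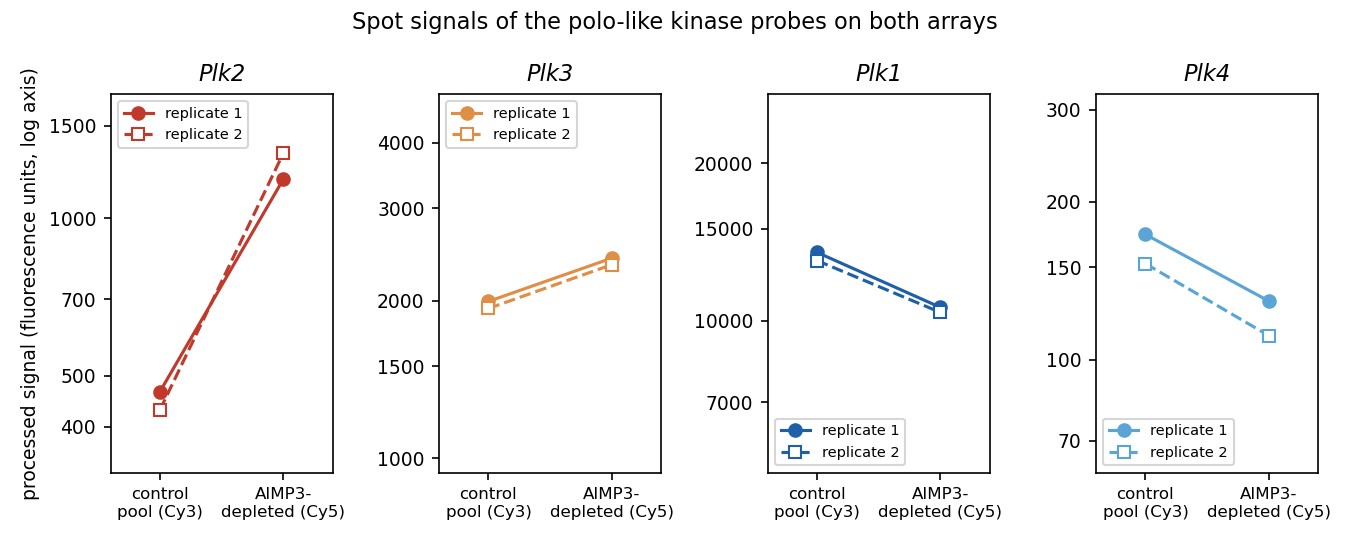
Processed fluorescence signal (log axes, each spanning the same number of fold) of each kinase probe in the control pool and in AIMP3-depleted cells, with filled circles for the array of replicate 1 and open squares for that of replicate 2. The lines of *Plk2* and *Plk3* go up and those of *Plk1* and *Plk4* go down on both arrays, from 467 to 1187 and from 431 to 1331 for *Plk2*.

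In the order of the ratios, *Plk2* stood first, *Plk3* next and *Plk4* and *Plk1* last. *Plk2* was above *Plk3* by 0.95 and 1.17 on the arrays of replicates 1 and 2. *Plk3* was above *Plk4* by 0.57 and 0.73, and above *Plk1* by 0.72 on both arrays. *Plk1* and *Plk4* differed by -0.15 on one array and 0.01 on the other, a mean difference of -0.07 ± 0.12 (SD, n = 2), less than the spread between the arrays. Their order turned with other processing, with *Plk1* above *Plk4* by 0.07 and 0.13 with the processed signals and in the deposited table and by 0.04 and 0.20 with median centring. The mean of *Plk2* and *Plk3* minus that of *Plk1* and *Plk4* was 1.12 and 1.31 on the arrays (mean 1.21 ± 0.13, SD, n = 2).

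The dye normalization moved all 4 ratios. Median centring of each array in place of loess gave a median of 0.18 over all tested genes, against 0.015 after loess, and put *Plk3* at 0.60, which is 1.52-fold and over the threshold, with 0.63 and 0.58 on the arrays. It put *Plk1* at -0.01, with a different sign on each array (0.01 and -0.03), and *Plk4* at -0.13. Relative to the median of all tested genes, *Plk1* was then at -0.19, *Plk4* at -0.31, *Plk3* at 0.42 and *Plk2* at 1.46. With median centring limma estimated infinite prior degrees of freedom, so that all genes share 1 variance, and the counts of genes at an adjusted p under 0.05 for that setting are not on the footing of those after loess.

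**Figure D3:**
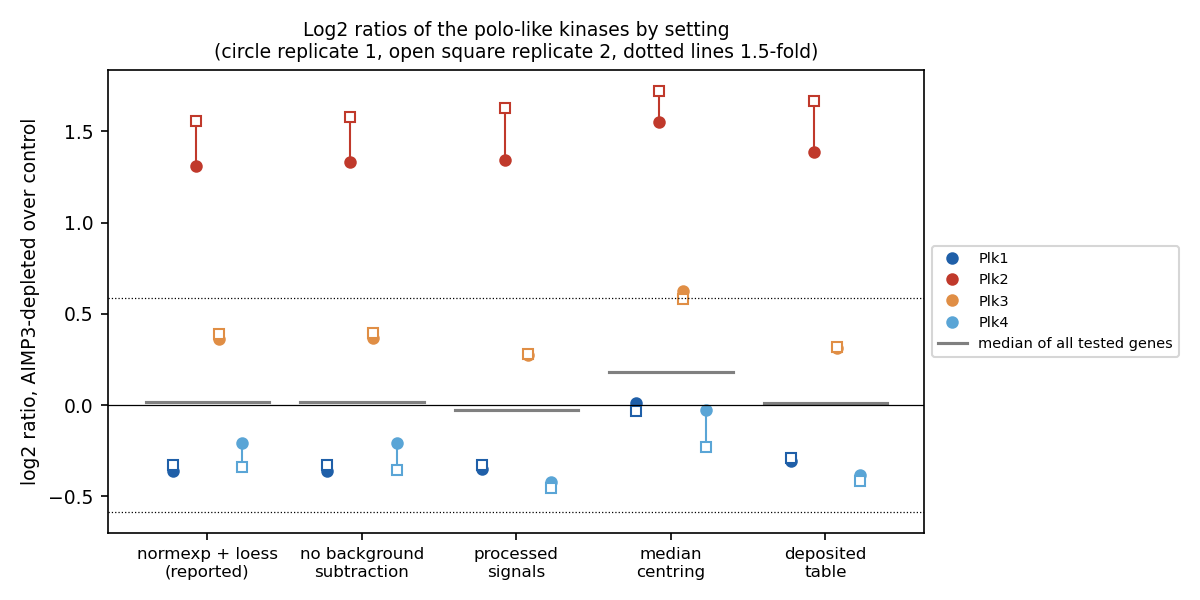
Log2 ratio of each kinase on both arrays under 5 settings, with a grey bar for the median of all tested genes and dotted lines at 1.5-fold. *Plk2* lies above 1.3 under each setting, while *Plk3* reaches 0.60 and *Plk1* comes to -0.01 with median centring.

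**Figure D4:**
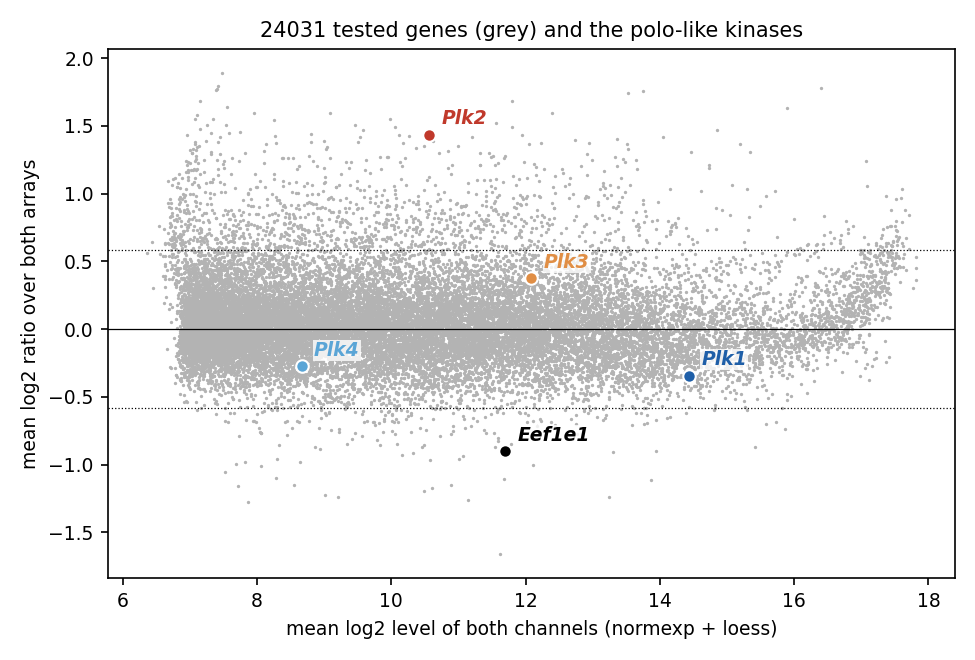
Mean log2 ratio over both arrays against the mean log2 level of both channels for 24031 tested genes (grey points), with the polo-like kinases and *Eef1e1* in colour or black and dotted lines at 1.5-fold. *Plk2* (1.43) stands far above the bulk of genes, and *Plk3*, *Plk1* and *Plk4* lie between the dotted lines.

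The genes nearest to each kinase were sought among 14303 genes with a RefSeq symbol and signal well above background in every channel, by the Euclidean distance between the pairs of log2 ratios on the 2 arrays. Nearest to *Plk2* were *Hmga2*, a chromatin protein of early embryos (1.34 and 1.53), *Tagln*, an actin-binding protein of contractile cells (1.38 and 1.55), and *Foxa2*, a transcription factor of endoderm (1.261 and 1.502). Within a distance of 0.1 there were 8 genes for *Plk2*. There were 765 for *Plk3*, with *Abcc5*, *Ppp4r1* and *Clca3b* as the nearest, and 714 for *Plk1*, with *Imp3*, *Tfam* and *Aire*. *Plk4* had 615, with *Usp42*, *Ybx2* and *Gde1* as the nearest. The nearest genes lay at distances of 0.045 to 0.074 from *Plk2*, and of at most 0.011 from the other 3 kinases.

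*Plk5*, the fifth mouse gene of the family, which lacks most of the kinase domain in humans and is best known from brain, was measured by 1 probe and fell. Its log2 ratios were -0.57 and -0.44 (mean -0.51 ± 0.087, SD, n = 2), under 1.5-fold (adjusted p = 0.000439 by limma). With median centring it was at -0.30.

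Genes that work with PLK1 had mostly negative ratios of small size after loess, 25 negative and 7 positive, where 52.7% of all tested genes were positive. The list holds its activators (*Aurka*, *Bora*), its docking partners and the cyclin B machinery, and all 32 genes were tested. By limma 0 of them passed 1.5-fold, and 0 did by the methods' t-test, beside 6.31% and 4.13% of all tested genes. At any fold, 19 fell and 2 rose at an unadjusted p under 0.05, beside 27% and 33.5% of all tested genes, and 19 fell and 2 rose at an adjusted p under 0.05, beside 23.7% and 30.6% of all tested genes that fell and rose at that adjusted p. The median log2 ratio was -0.18, against 0.015 for all tested genes. With median centring the direction turned, with a median of 0.05 (13 rose and 6 fell at an adjusted p under 0.05, beside 54.4% and 8.78% of all tested genes), which is -0.13 relative to the median of all tested genes. *Bub1*, a kinase of the spindle checkpoint that PLK1 docks on, had the lowest ratio (-0.54 ± 0.043, SD, n = 2, adjusted p = 0.000236 by limma) and passed 1.5-fold with the processed signals (-0.59), but was at -0.31 with median centring. *Fzr1*, whose product CDH1 marks PLK1 for destruction after mitosis, had the highest at 0.29 (0.53 with median centring), although its other probe gave -0.21. *Plk1* itself had a lower ratio than 26 of these genes and a higher one than 6.

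The centriole genes around *Plk4* had 20 negative and 8 positive ratios, where 52.7% of all tested genes were positive. Of 28 tested genes 0 passed 1.5-fold by limma and 0 by the methods' t-test, beside 6.31% and 4.13% of all tested genes. At an unadjusted p under 0.05 there were 12 that fell and 2 that rose, beside 27% and 33.5%, and at an adjusted p under 0.05 there were 12 that fell and 1 that rose, beside 23.7% and 30.6% of all tested genes. The median was -0.09, and it turned to 0.13 with median centring (-0.05 relative to the median of all tested genes), where 18 ratios were positive and 10 negative and, at an adjusted p under 0.05, 12 genes rose and 3 fell, beside 54.4% and 8.78% of all tested genes. *Stil* and *Sass6*, which act with PLK4 at the start of a new centriole, had ratios of 0.12 and 0.09 (adjusted p = 0.0652 and 0.13 by limma), which were 0.30 and 0.26 with median centring. The lowest ratio was that of *Poc1a*, a centriole protein (-0.46, -0.24 with median centring, and -0.26 for its other probe). The highest was that of *Btrc*, a subunit of the ubiquitin ligase that removes PLK4 (0.53). It was over 1.5-fold without background subtraction (0.59), with the processed signals (0.65), with median centring (0.67) and in the deposited table (0.69), and its other, dimmer probe gave 0.10. *Plk4* had a lower ratio than 21 of the 28 genes.

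The 6 genes by which cells sense a wrong number of centrosomes or a long mitosis, which lie downstream of faults in PLK4 and PLK1, held 1 called gene, beside 0.791% of all tested genes called lower. *Usp28*, a deubiquitinase that works with 53BP1 to stabilize p53 after a delayed mitosis, fell to 0.535 of control, with log2 ratios of -0.87 and -0.94 (mean -0.90 ± 0.052, SD, n = 2, adjusted p = 5.33e-05 by limma). It stayed past 1.5-fold under the other background corrections and normalizations, with the ratio nearest to 0 at -0.65 with median centring. *Trp53bp1*, the gene of 53BP1, fell with -0.30 (adjusted p = 0.00223 by limma), while its dimmer probe gave -0.05. With median centring *Trp53bp1* was at -0.09 and no longer under an adjusted p of 0.05 (adjusted p = 0.25 by limma). *Pidd1*, which starts the PIDDosome that answers to extra centrosomes, had the highest ratio at 0.23 (0.43 with median centring). The median of the 6 genes was -0.13 and turned to 0.09 with median centring, which is -0.15 and -0.09 relative to the median of all tested genes.

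Known partners and substrates of PLK2 and PLK3 had 6 positive and 5 negative ratios, with a median of 0.04. Of 13 genes 11 were tested, and 0 passed 1.5-fold by limma or by the methods' t-test, beside 6.31% and 4.13% of all tested genes. At an unadjusted p under 0.05 there were 3 that rose and 3 that fell, beside 33.5% and 27% of all tested genes, and at an adjusted p under 0.05 there were 2 and 3, beside 30.6% and 23.7%. The median was -0.0087 with the processed signals. With median centring it was 0.27 (0.09 relative to the median of all tested genes), and 7 genes rose and 2 fell at an adjusted p under 0.05, beside 54.4% and 8.78% of all tested genes. *Chek2*, a checkpoint kinase that PLK3 phosphorylates, had the lowest ratio (-0.54, adjusted p = 0.000214 by limma), and was over 1.5-fold with the processed signals (-0.64) and in the deposited table (-0.60), but at -0.35 with median centring. *Rapgef2*, a synaptic substrate of PLK2, had the highest (0.55, adjusted p = 2e-04 by limma) and reached 0.76 with median centring.

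Early response genes, the class that *Plk2* and *Plk3* belong to, were called higher for 9 of 26 tested genes (of 27 listed) and lower for 0, beside 5.52% and 0.791% of all tested genes. At an unadjusted p under 0.05 by limma 20 rose and 2 fell, beside 33.5% and 27% of all tested genes. Their median log2 ratio was 0.42, with 0.39 and 0.48 on the arrays, and it was 0.40 relative to the median of all tested genes both after loess and with median centring. The largest ratios were those of *Fosl2*, a subunit of AP-1 (1.47), *Atf3*, a stress-induced transcription factor (1.27), *Klf6*, a zinc finger factor (1.04), and *Ccn1*, a matrix protein (0.97). The other, dimmer probe of *Fosl2* gave 0.19. *Plk2* (1.43) was above 25 of these 26 genes, under *Fosl2* alone, and *Plk3* (0.38) was above 10 and under 16 of them. All early response genes were measured after 4 days, so a transient change soon after 4-OHT was not captured.

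Among 25 tested genes that p53 activates in arrest and damage, 9 were called higher and 0 lower, beside 5.52% and 0.791% of all tested genes, with a median of 0.41. Of the ratios 21 were positive and 4 negative, and at an adjusted p under 0.05 by limma 19 rose and 2 fell, beside 30.6% and 23.7% of all tested genes. Those that fell were *Bax*, an activator of cell death (-0.20, adjusted p = 0.0142 by limma), and *Gadd45a*, a DNA damage response gene (-0.15, adjusted p = 0.0298 by limma). Neither passed with the processed signals (adjusted p = 0.0637 and 0.0561 by limma), and with median centring they were at 0.11 and 0.08. *Plk2* was above all 25, with *Cdkn1a*, the gene of the cell cycle inhibitor p21, next (1.21, and 0.28 for its dimmer probe). *Mdm2* (1.06), *Perp* (1.02) and *Phlda3* (0.95) came after it, while *Plk3* was above 12 of the 25 genes and under 13. The list was chosen with earlier results of these arrays known, and it is no independent evidence on p53.

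Markers of other cell types were also higher in AIMP3-depleted mESCs. Labels describe feeder layers of fibroblasts as the usual culture, and the methods describe medium conditioned by fibroblasts for treatment with drugs. Of 18 fibroblast markers 17 were tested, 11 were called higher and 0 lower, beside 5.52% and 0.791% of all tested genes, with a median of 0.75, and 16 of the 17 were well above background in the control channel on both arrays. Their summed processed signal was 15912 and 15622 in the control channels and 29664 and 29692 in the AIMP3-depleted channels. All 12 primitive endoderm markers were called higher, with a median of 1.08, and their sum was 92424 and 98907 in the control channels and 183871 and 191745 in the AIMP3-depleted channels. *Sox17* (1.44) and *Foxa2* (1.38), transcription factors of endoderm, were closest to *Plk2* among them, and their dimmer probes gave 0.94 and 1.05. *Sparc* (1.24, and 0.71 for its dimmer probe) and *Col4a1* (1.24) came next. The ratio of the fibroblast marker *S100a4* lay between those of *Sox17* and *Foxa2*. The sum over 14 pluripotency markers was 157171 and 158278 in the control channels and 150167 and 150448 in the AIMP3-depleted channels, and 2 of them, *Fgf4* (-0.87) and *Tdgf1* (-0.59), were called lower and 0 higher. Their median was -0.04, with 7 positive and 7 negative ratios. At an adjusted p under 0.05 by limma 7 fell and 5 rose, beside 23.7% and 30.6% of all tested genes. *Dppa5a*, a marker of naive cells, rose the most (0.50) and was the brightest of the 14, so it weighs most in the sum. *Pou5f1*, *Nanog* and *Sox2* were at -0.48, -0.38 and -0.53, with 0.06 for the dimmer probe of *Nanog*. With median centring 5 of the 14 fell and 7 rose at an adjusted p under 0.05, beside 8.78% and 54.4% of all tested genes. *Fgf4* was then at -0.47, *Tdgf1* at -0.20 and *Dppa5a* at 1.03. The median of the 14 markers was 0.00067 relative to the median of all tested genes. The calls at 1.5-fold depend on the normalization, for these markers and for all tested genes. With the processed signals 0 of the 14 were called higher and 1 lower, beside 1945 and 777 of all tested genes. The deposited table also gave 0 higher and 1 lower, beside 2131 and 617 of all tested genes. With median centring 2 were called higher and 0 lower, beside 2823 and 65 of all 24031 tested genes. The part of these cell types in the ratios of the polo-like kinases was not tested, and in bulk RNA more cells of a type and more RNA per cell cannot be told apart.

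**Figure D5:**
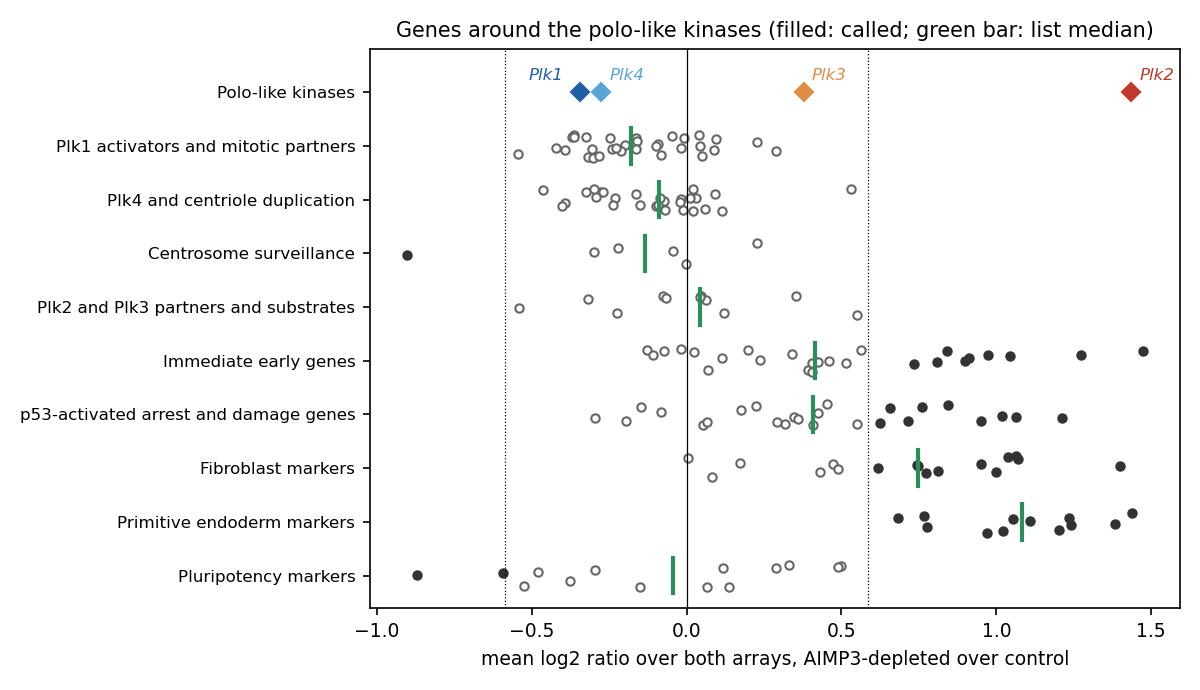
Mean log2 ratio over both arrays of the polo-like kinases (diamonds) and of the tested genes of 9 lists (points, filled where called, with a green bar at the list median and dotted lines at 1.5-fold). Mitotic and centriole genes lie around -0.18 and -0.09, and early response and p53-activated genes around 0.42 and 0.41, with *Plk2* near the right end.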

How the data were processed

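RNA of 2 AIMP3-depleted samples was measured on 2 Agilent mouse arrays. The authors deposited scanner output (Feature Extraction, version 11.5.1.1 per the file headers) with spot intensity and local background intensity before any normalization. It also holds processed signals and their log10 ratio of Cy5 over Cy3 with its error, deposited as the software gave them. A further table deposited by the authors, processed in GeneSpring, gives log2 ratios. It equals the scanner's ratio plus 0.040 and 0.040 on the 2 arrays, within 0.01, for 99.8% of probes, so a positive value stands for AIMP3-depleted over control, although the methods word the ratio the other way round. Its column medians are 0.0909 and 0.111. No column of it was left out (0 columns).

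Medians over the pixels of a spot were corrected with limma's normexp (offset 50) and loess. Control spots and spots with an outlier flag (215 and 227) were left out, and no spot was saturated (0 spots). A probe had to be well above background, on both arrays, in 1 or both channels, and 33022 of 55681 were. The brightest probe stood for a gene, which gave 24031 genes, 14983 of them with a RefSeq symbol (assembly GRCm38.p6, used for names and promoters, while the array design is annotated on another build). The log2 ratio was tested against 0 with lmFit and eBayes, with 1 residual and 5.25 prior degrees of freedom (1.78 with the processed signals and infinite with median centring), and since no label says that the samples are separate cultures, p-values measure only the spread between them, which may be technical. A gene was called at over 1.5-fold with an unadjusted p under 0.05, and adjusted values are Benjamini-Hochberg over all tested genes. In a test on simulated data for this comparison, with 24031 genes, 200 of 200 genes changed by 2-fold were recovered, with 0 false calls. Such a change lies far past the threshold beside a median SD between the arrays of 0.048. The simulation therefore checks the calculation and not the calls reported here.

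The kinases, the gene lists and the promoter elements were chosen with earlier results of these data known. The text names all kinase probes, the called genes of a list by size (at most 4) or its lowest and highest gene, and the 3 nearest genes. *Stil*, *Sass6*, *Trp53bp1*, *Bax*, *Gadd45a*, *Dppa5a*, *Pou5f1*, *Nanog* and *Sox2* were named after their values were seen. Tools were R 4.3.3, limma 3.58.1, data.table (version 1.17.8), Python 3.11.15, pandas 2.3.3 and matplotlib 3.10.9.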

Additional observations from a re-analysis of the deposited data

How the results depend on the processing

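The mean ratio of each kinase had the same sign with each background correction and normalization tried and on each single array after loess, and the arrays had the same sign in each case except *Plk1* with median centring. Median centring gave -0.012 for *Plk1*, 1.64 for *Plk2*, 0.60 for *Plk3* and -0.13 for *Plk4*. The processed signals gave 0.28 for *Plk3* and -0.44 for *Plk4*, and the deposited table gave -0.30 for *Plk1*, 0.32 for *Plk3* and -0.40 for *Plk4*. The cause of these shifts was not tested. Averaging the probes of a gene could not change them, since each kinase has 1 probe. On single arrays the ratios ranged from -0.36 to -0.33 for *Plk1*, from 1.31 to 1.56 for *Plk2*, from 0.36 to 0.39 for *Plk3* and from -0.34 to -0.21 for *Plk4*, and from 1.12 to 1.31 for the difference between the pairs. Of all tested genes 1517 were changed, against 2722 with the processed signals, 2888 with median centring, 2748 in the deposited table, 298 over 2-fold and 992 by the methods' t-test. Raised genes were 87.5% of the calls, 71.5% with the processed signals, 77.5% in the deposited table and 97.7% with median centring. Among the genes around PLK1, 1 passed with the processed signals. Among the centriole genes 1 passed without background subtraction, 2 with the processed signals, 1 with median centring and 1 in the deposited table, and from 0 to 1 on single arrays (1 without replicate 1), where passing is by fold alone since 1 array allows no test. Counted so, from 1523 to 1651 of all tested genes passed. Of the centrosome surveillance genes 0 passed over 2-fold. Of the partners of PLK2 and PLK3, 1 passed with the processed signals, 2 with median centring and 1 in the deposited table. Over 2-fold, 3 early response and 3 p53-activated genes passed. No paired analysis was possible because the control is 1 pool on both arrays.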
